A study of Homo sapiens with 4 samples.

Results

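The E2F family, its inhibitor gene RB1 and its dimer partner gene TFDP1 were examined at the transcript level in pancreatic cancer cells with and without radiation. Members were taken by gene symbol, E2F1 to E2F8, RB1 and TFDP1, which gave 10 of the 58174 rows of the expression table that name a gene. SW1990 and PANC-1, both established human pancreatic cancer cell lines, were left unirradiated or were treated with 10 Gy of X-rays. RNA was sequenced in 1 library per line and treatment, 4 in all, and the sources differ on its selection, since the labels describe ribosomal RNA removal and the protocol names an mRNA kit. No transgene, deletion or drug is labelled in any group, and the labels give both lines the same range of passages. The labels give a different culture medium for each line (DMEM for PANC-1), so the line and its medium cannot be told apart. The time between radiation and RNA collection is not given in the sources used here. The study named E2F3 as a target of miR-194-5p, a microRNA carried by exosomes of dying irradiated cells.

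For every gene the table holds counts of reads and FPKM, a level that is divided by transcript length and by the fragments mapped in the library. Counts on genes summed to 17851815 and 18305682 for unirradiated and irradiated SW1990, and to 23323266 and 20026595 for unirradiated and irradiated PANC-1. With 1 library per condition, no difference between 2 libraries has a replicate check. A test on the reads of 2 libraries therefore compares those libraries rather than the conditions, and the intervals given reflect counting error alone. All values come from bulk cultures, in which fewer cells of a type and less RNA per cell cannot be told apart. The keratin genes KRT8, KRT18 and KRT19, markers of epithelial cells, had between 146 and 1888 FPKM in the 4 libraries, and KRT7 had between 5.02 and 6.35 FPKM. EPCAM and CDH1, the genes of epithelial surface and adhesion proteins, had at least 140 FPKM in SW1990 cells and at most 2.81 FPKM in PANC-1 cells. CD68, usually a macrophage gene, had 18.8 and 13.9 FPKM in PANC-1 cells and under 1 FPKM in SW1990 cells. COL1A1, a collagen gene, had 8.44 and 11 FPKM in PANC-1 cells and 1.40 and 2.85 FPKM in SW1990 cells. The leukocyte gene PTPRC, the vessel gene PECAM1 and the islet gene INS had at most 2 reads in any library.

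E2F proteins bind short GC-rich words near the start of genes that drive DNA synthesis and cell division, mostly as dimers with a DP protein. RB1 and its relatives, the pocket proteins, hold E2F proteins back in resting and G1 cells, and cyclin-dependent kinases end this hold by phosphorylating them. E2F1, E2F2 and E2F3 are the activators, E2F4 and E2F5 mainly repress together with pocket proteins, E2F6 represses without them, and E2F7 and E2F8 are atypical repressors that bind DNA without a DP partner. Loss of RB1 control is a common event in cancer, and radiation halts the cycle in part through p53 and the CDK inhibitor CDKN1A.

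The start of each gene was searched for E2F words, because several members are themselves known as E2F target genes. The words TTTCCCGC, TTTGGCGC, TTTCGCGC and TTTGCCGC were searched on both strands of RefSeq windows on GRCh38.p14, which run from 250 bases before to 50 bases after each gene start. The forward and reverse forms of TTTCGCGC can overlap each other. Of the members, 8 had a window and E2F5 and E2F8 had none. The RB1 window lies inside the gene, away from the start that the deposited table gives, and is not used. At least 1 word was found in the windows of E2F1, E2F2, E2F3 and TFDP1, and no word was found in those of E2F4, E2F6 and E2F7. For E2F3 the word lies in the window next to the start that the deposited table gives. A further E2F3 window, 1708 bases from that start, held no word. In all 35116 windows of the promoter table, 3.31% held a word. The stretches with words are shown 5′ to 3′ from 130 bases before the RefSeq start, with the words in capitals. The stretch of E2F1 is chr20:33686398-33686515 on the minus strand, that of E2F2 is chr1:23531234-23531363 on the minus strand, that of E2F3 is chr6:20401749-20401878 on the plus strand and that of TFDP1 is chr13:113584623-113584720 on the plus strand.
E2F1: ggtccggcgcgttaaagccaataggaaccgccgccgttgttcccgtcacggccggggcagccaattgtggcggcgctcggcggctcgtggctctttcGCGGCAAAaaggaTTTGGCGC
E2F2: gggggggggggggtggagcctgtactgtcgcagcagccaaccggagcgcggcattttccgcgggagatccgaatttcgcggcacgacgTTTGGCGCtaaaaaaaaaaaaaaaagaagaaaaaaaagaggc
E2F3: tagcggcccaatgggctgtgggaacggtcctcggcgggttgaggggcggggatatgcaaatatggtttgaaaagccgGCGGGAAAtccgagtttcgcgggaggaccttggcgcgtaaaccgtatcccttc
TFDP1: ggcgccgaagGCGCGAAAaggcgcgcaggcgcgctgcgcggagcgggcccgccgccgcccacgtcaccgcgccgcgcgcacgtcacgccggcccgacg

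In E2F1 the words begin 33 and 20 bases before the start, in E2F2 at 42, in E2F3 at 53 and in TFDP1 at 120 bases before it. A word is a match of letters and no measured binding site.

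The site through which miR-194-5p was assayed on E2F3 in the study's reporter is shown because E2F3 is the member the study singled out. It was located in the GENCODE release 29 transcripts of E2F3 on GRCh38, at chr6:20493589-20493618 on the plus strand, in the 3′ untranslated part of the last exon. The whole site of 30 bases was found once in each of 3 E2F3 transcripts. The capitals in the microRNA mark its seed (bases 2 to 8), and those in the site mark the bases that pair with bases 2 to 7 and the A opposite base 1. The capital bases of the site occurred 2 times in the transcripts of 4749 and 4425 bases, and 1 time in that of 4094 bases.
miR-194-5p: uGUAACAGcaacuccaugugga
E2F3 site: gattttgtaaatagattTGTTACAgggtga

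The level of the microRNA itself was not analysed here.

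Every member was expressed at 4 FPKM or more in every library, so all 10 passed the filter of at least 1 FPKM. Among the activators, E2F1 had the highest level, with 19.3 FPKM in unirradiated and 17.6 FPKM in irradiated SW1990 cells, and 21.5 FPKM in unirradiated and 27.7 FPKM in irradiated PANC-1 cells. E2F2 had 8.31 and 7.04 FPKM in unirradiated and irradiated SW1990 cells, and 4.03 and 7.70 FPKM in the same order in PANC-1 cells. E2F3 had 4.14 and 5.60 FPKM in SW1990 cells and 5.88 and 5.19 FPKM in PANC-1 cells. E2F3 thus had the lowest mean level of the 10 genes in SW1990 cells, and the second lowest in PANC-1 cells. Of the pocket protein-bound repressors, E2F4 had 66.1 and 71.5 FPKM in SW1990 cells and 31.4 and 39.4 FPKM in PANC-1 cells. E2F5 had 10.1 and 9.83 FPKM in SW1990 cells and 7.56 and 10.0 FPKM in PANC-1 cells. E2F6, a subunit of a Polycomb-type repressor complex, had 7.88 and 7.15 FPKM in SW1990 cells and 5.07 and 5.85 FPKM in PANC-1 cells. E2F4 was the most abundant E2F transcript in all 4 libraries. Of the atypical repressors, E2F7 had 12.1 and 8.70 FPKM in SW1990 cells and 21.7 and 14.2 FPKM in PANC-1 cells. E2F8 had 14.1 and 11.5 FPKM in SW1990 cells and 6.81 and 8.28 FPKM in PANC-1 cells. The order of the pair depended on the line, with E2F8 above E2F7 in both SW1990 libraries and E2F7 above E2F8 in both PANC-1 libraries. RB1 had 24.4 and 24.0 FPKM in SW1990 cells and 12.8 and 11.4 FPKM in PANC-1 cells. TFDP1 had 111 and 107 FPKM in SW1990 cells and 33.0 and 41.5 FPKM in PANC-1 cells, the highest of the 10 genes in every library.

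**Figure D1:**
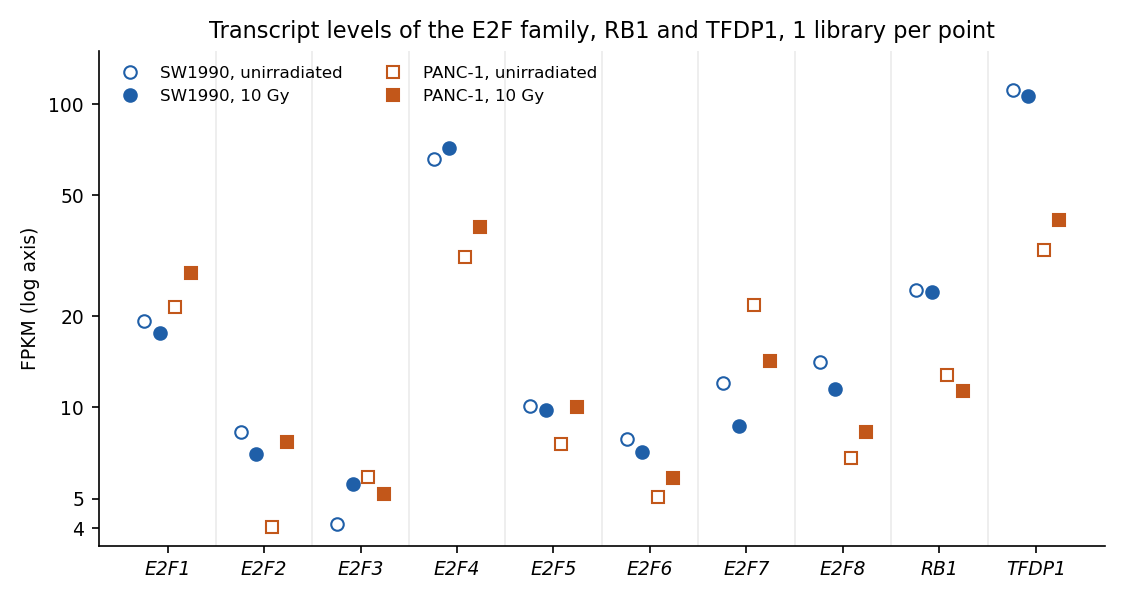
FPKM on a log axis for the 10 genes, 1 point per library, with open symbols for unirradiated and filled symbols for 10 Gy cells. TFDP1, E2F4, E2F6, E2F8 and RB1 lie higher in both SW1990 libraries (circles) than in both PANC-1 libraries (squares), while E2F1 and E2F7 lie lower.

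Ordered by the mean of 2 libraries, the FPKM levels in SW1990 cells ran from TFDP1 (109) through E2F4 (68.8), RB1 (24.2), E2F1 (18.5), E2F8 (12.8), E2F7 (10.4), E2F5 (9.95), E2F2 (7.68) and E2F6 (7.51) to E2F3 (4.87). The ranges of the 2 libraries overlapped for the neighbours E2F8 and E2F7, E2F7 and E2F5, and E2F2 and E2F6. In PANC-1 cells the order was TFDP1 (37.2), E2F4 (35.4), E2F1 (24.6), E2F7 (17.9), RB1 (12.1), E2F5 (8.80), E2F8 (7.55), E2F2 (5.86), E2F3 (5.53) and E2F6 (5.46). Here the ranges overlapped for TFDP1 and E2F4, for E2F1 and E2F7, and for each neighbouring pair from E2F5 down to E2F6. The 2 libraries of a line differ in treatment, so these ranges hold the radiation response as well as noise.

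The summed FPKM of the 8 E2F genes was 142 before and 139 after radiation in SW1990 cells, and 104 and 118 likewise in PANC-1 cells. E2F4 and E2F5 made up 53.6% and 58.6% of this sum in SW1990 cells and 37.5% and 41.8% in PANC-1 cells. The activators E2F1, E2F2 and E2F3 made up 22.4% and 21.8% in SW1990 cells and 30.2% and 34.3% in PANC-1 cells. The atypical repressors made up 18.4% without and 14.5% with radiation in SW1990 cells, and 27.4% without and 19.0% with radiation in PANC-1 cells. The pocket protein-bound repressors therefore held the largest share in each library, by a wider margin in SW1990 cells. The shares have no replicate error.

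Radiation was examined first within each line, in the libraries before and after 10 Gy. By the rule of the study's methods, an adjusted p below 0.001 and a fold change above 2, 0 of the 10 members were called in SW1990 cells, where 4.13% of 15731 genes tested were called. In PANC-1 cells 0 of 10 were called, where 4.7% of 15159 genes were. E2F7 was the member with the lowest irradiated to unirradiated ratio in PANC-1 cells, and E2F3 and E2F7 had the largest changes in SW1990 cells, in opposite directions. The adjusted p comes from edgeR's exactTest on the reads of 2 libraries with TMM scaling, and the intervals below are 95% Clopper-Pearson intervals of the log2 fold change.

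Among the activators, E2F1 had 1062 counts before and 985 after radiation in SW1990 cells, and 1552 and 1730 counts in PANC-1 cells, log2 fold changes of -0.12 (-0.24 to 0.01) and 0.29 (0.19 to 0.39). E2F2 had 664 and 647 counts in SW1990 cells and 553 and 834 in PANC-1 cells, log2 fold changes of -0.04 (-0.20 to 0.11) and 0.72 (0.57 to 0.88). The E2F2 value in PANC-1 cells was the largest positive value among the members in either line, and 15.7% of the genes tested there had a change at least as large in either direction. E2F3 had 416 and 566 counts in SW1990 cells and 778 and 583 in PANC-1 cells, log2 fold changes of 0.44 (0.25 to 0.62) and -0.29 (-0.44 to -0.13). E2F3 was thus higher in the irradiated library of SW1990 cells and lower in that of PANC-1 cells, with both intervals clear of 0 and both values short of a 2-fold change. Changes as large as that of E2F3 were found in 28.5% of the genes tested for SW1990 and 47.9% of those for PANC-1.

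Of the repressors that act with pocket proteins, E2F4 had 2329 and 2545 counts in SW1990 cells and 1672 and 1553 in PANC-1 cells, log2 fold changes of 0.12 (0.04 to 0.20) and 0.02 (-0.08 to 0.12). By FPKM the value of E2F4 in PANC-1 cells was 0.33, outside the counting interval. E2F5 had 413 and 405 counts in SW1990 cells and 375 and 444 in PANC-1 cells, log2 fold changes of -0.03 (-0.24 to 0.17) and 0.37 (0.17 to 0.58). The E2F5 row overlaps C8orf59 on the opposite strand, which had between 345 and 543 counts, and the sources used here do not say whether counting used strand. E2F6 had 410 and 399 counts in SW1990 cells and 341 and 354 in PANC-1 cells, log2 fold changes of -0.05 (-0.25 to 0.16) and 0.18 (-0.03 to 0.40). For E2F6 both intervals included 0.

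E2F7, which represses E2F1 and other E2F target genes, had 1194 counts before and 898 after radiation in SW1990 cells, and 2994 and 1589 counts in PANC-1 cells. Its log2 fold changes were -0.42 (-0.54 to -0.29) and -0.78 (-0.87 to -0.70). It was the only member whose value was negative in both lines with both intervals clear of 0, and 13.8% of the genes tested in PANC-1 cells had a change at least as large. E2F8, its close relative, had 897 and 812 counts in SW1990 cells and 507 and 597 in PANC-1 cells, log2 fold changes of -0.15 (-0.29 to -0.01) and 0.37 (0.19 to 0.54). RB1 had 2498 and 2540 counts in SW1990 cells and 1622 and 1300 in PANC-1 cells, log2 fold changes of 0.02 (-0.06 to 0.10) and -0.19 (-0.30 to -0.08). TFDP1 had 4602 and 5257 counts in SW1990 cells and 1996 and 2134 in PANC-1 cells, log2 fold changes of 0.19 (0.13 to 0.24) and 0.23 (0.14 to 0.32). TFDP1 was the only member with both intervals above 0, but its FPKM went from 111 to 107 in SW1990 cells, which is -0.06 on the log2 scale.

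**Figure D2:**
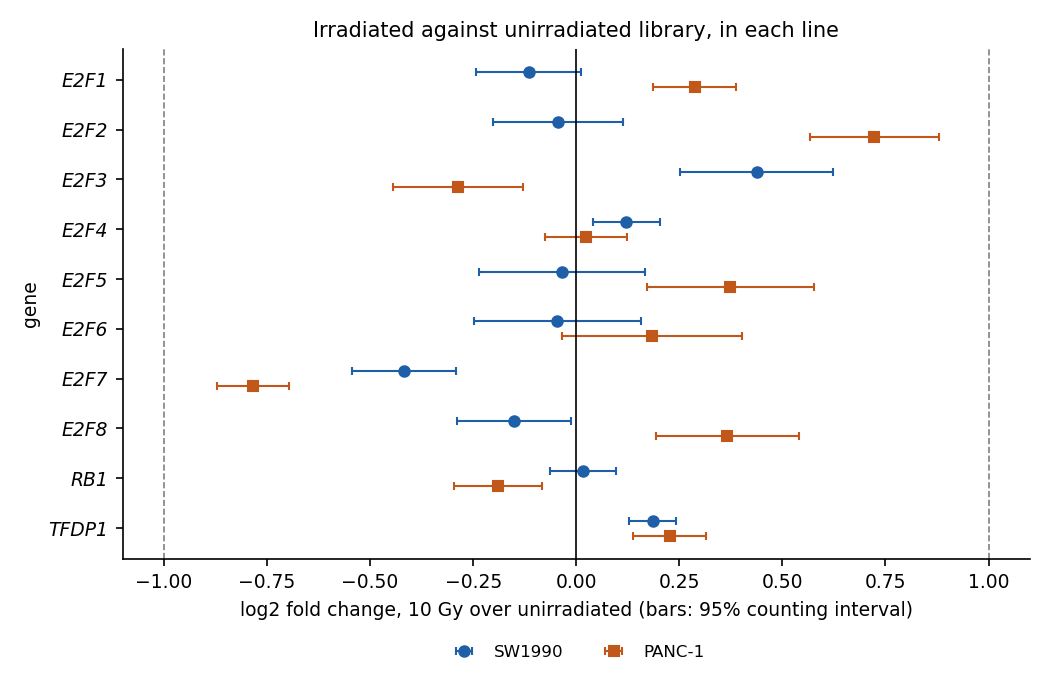
Log2 fold change of the irradiated over the unirradiated library for each gene, circles for SW1990 and squares for PANC-1, with 95% intervals that cover counting error only. All values lie between the dashed lines at a 2-fold change, and E2F7 is the leftmost gene in both lines.

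By the adjusted p below 0.001 alone, without the fold change, 2 members were higher in irradiated SW1990 cells, E2F3 and TFDP1, where 14.4% of genes were. E2F7 was lower, where 11.8% of genes were. In PANC-1 cells 5 members were higher by the same measure, E2F1, E2F2, E2F5, E2F8 and TFDP1, where 15.3% of genes were, and 2 were lower, E2F3 and E2F7, where 19.3% were. The median log2 fold change of the members was -0.04 for SW1990 and 0.21 for PANC-1, beside -0.01 and -0.02 over all genes tested. When 4 libraries were fitted together with cell line as a covariate (edgeR quasi-likelihood test, 1 residual degree of freedom), 0 of 10 members and 0 of 18180 genes passed an adjusted p of 0.05, a share of 0%. The unadjusted p was below 0.05 for 833 genes, and DESeq2 called 39 genes and 0 members. E2F7 had the lowest adjusted p together with E2F2 and TFDP1, 0.936 in the edgeR fit, with a log2 fold change of -0.59 and an unadjusted p of 0.0184.

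Whether the response differed between the lines was tested on the 4 counts of each gene, with counting error only. A difference above 1 on the log2 scale with an adjusted p below 0.001 (Wald test) was found for 0 of 10 members and for 6.26% of 13228 genes. With the difference taken from FPKM, an alternative chosen after seeing the data, 1 of 10 members passed, E2F2 at -1.18, as did 5.59% of genes. By the adjusted p alone, 5 of 10 members differed, where 28.7% of genes did. The difference, SW1990 minus PANC-1, was -0.77 (-0.99 to -0.55) for E2F2 and 0.72 (0.48 to 0.96) for E2F3. It was -0.52 (-0.73 to -0.30) for E2F8, -0.40 (-0.56 to -0.24) for E2F1 and 0.37 (0.21 to 0.52) for E2F7. E2F1, E2F2 and E2F8 thus had the lower value in SW1990 cells, and E2F3 and E2F7 the higher one. By FPKM the difference of E2F7 was 0.14. For TFDP1 the difference was -0.04 (-0.15 to 0.06), which by FPKM became -0.39. For E2F4 it was 0.10 (-0.03 to 0.23), which by FPKM turned to -0.21.

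The lines were then compared with each other at each treatment. These comparisons use the same 4 libraries as those of radiation. In unirradiated cells 2 of 10 members were called, where 35.9% of 16626 genes were, and in irradiated cells 2 of 10, where 35.2% of 16819 genes were. TFDP1 was called in both, with TMM-scaled counts 2.60-fold higher in SW1990 than in PANC-1 cells without radiation and 2.55-fold higher with it, log2 differences of 1.38 (1.3 to 1.45) and 1.35 (1.28 to 1.42). E2F7 was called in unirradiated cells, with a log2 difference of -1.15 (-1.25 to -1.06), and had -0.78 (-0.89 to -0.66) in irradiated cells. RB1 was called in irradiated cells, at 1.01 (0.92 to 1.11), and had 0.79 (0.70 to 0.89) in unirradiated cells, so its call rests on a value next to the limit of 1. E2F8 lay just short of the limit without radiation, at 0.99 (0.84 to 1.15), and had 0.49 (0.34 to 0.65) with it. E2F4 had 0.65 (0.56 to 0.74) and 0.76 (0.67 to 0.85). E2F1, at -0.38 (-0.49 to -0.26) and -0.76 (-0.88 to -0.65), was higher in PANC-1 cells at both treatments. E2F2 was 0.44 (0.27 to 0.60) in unirradiated and -0.32 (-0.47 to -0.17) in irradiated cells, and so changed sign. E2F3 was -0.73 (-0.91 to -0.56) in unirradiated cells and 0.01 (-0.16 to 0.17) in irradiated cells, where the lines had 566 and 583 counts. E2F5 had 0.31 (0.11 to 0.52) and -0.08 (-0.28 to 0.11), and E2F6 had 0.44 (0.23 to 0.65) and 0.22 (0.01 to 0.43).

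**Figure D3:**
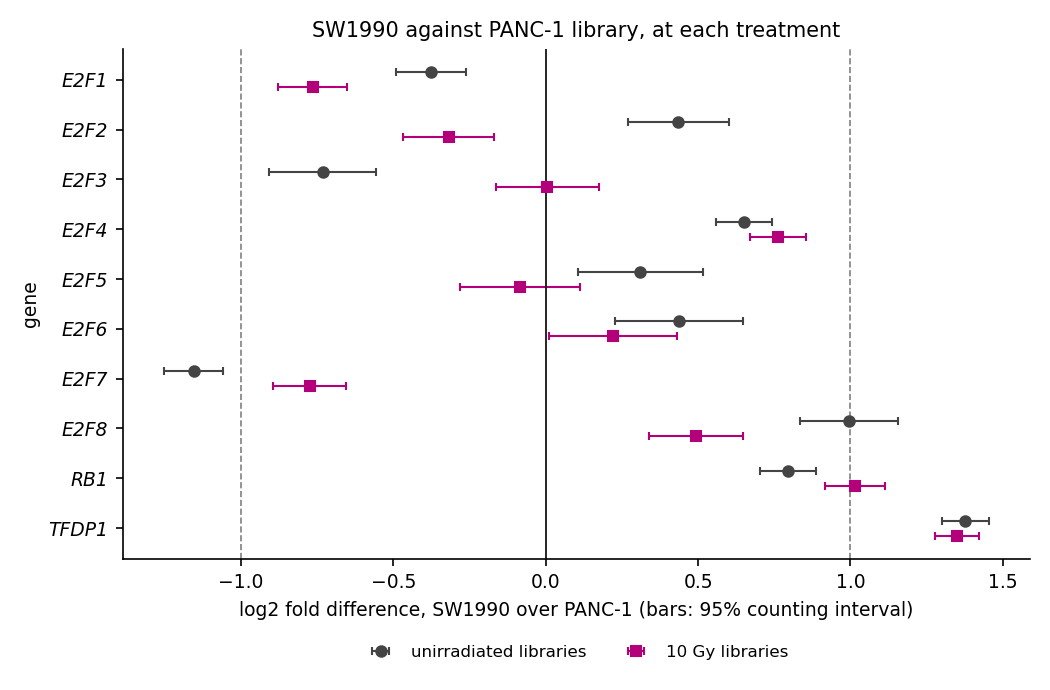
Log2 fold difference of SW1990 over PANC-1 for each gene, circles for the unirradiated and squares for the 10 Gy libraries, with 95% intervals that cover counting error only. TFDP1 lies beyond the dashed 2-fold line at both treatments, and the 10 Gy point of E2F3 lies at 0.01.

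The scaling matters for the unirradiated comparison, since the median log2 difference of all genes was -0.01 with TMM and 0.20 with total counts. With total counts E2F7 had -0.94 and was no longer called, while RB1 (1.01) and E2F8 (1.21) were. With an assumed coefficient of variation of 0.2 between replicates, 0 members were called at either treatment, where 21.9% of genes were called without and 20.9% with radiation.

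Over both treatments, the fit of 4 libraries called 6 of 10 members different between the lines at an adjusted p of 0.05 (edgeR quasi-likelihood test), where 43.6% of 18180 genes were. TFDP1 (log2 difference 1.36, adjusted p 0.00288), RB1 (0.90, adjusted p 0.0102), E2F4 (0.70, adjusted p 0.0173) and E2F8 (0.74, adjusted p 0.0391) were higher in SW1990 cells. E2F7 (-0.97, adjusted p 0.0118) and E2F1 (-0.57, adjusted p 0.0497) were higher in PANC-1 cells. Each of these 6 genes had the same direction in both treatments. With DESeq2, TFDP1, RB1, E2F4 and E2F7 were called (33.7% of genes), and E2F1 and E2F8 had an adjusted p of 0.100 and 0.0792. The call of E2F1 was lost in each of the 3 alternative fits run. Cell type markers differed between the lines as well. Of 6 epithelial markers 4 were higher in SW1990 cells in the same fit, EPCAM (6.18) and CDH1 (7.69) most of all, and the list summed to 2883 and 3720 FPKM in SW1990 and 1409 and 1639 FPKM in PANC-1 cells, with KRT8 the most abundant. Of the 8 markers of other cells 3 were tested, and all 3 were higher in PANC-1 cells, among them CD68 (-4.35) and COL1A1 (-3.0). This list summed to 2.93 and 4.53 FPKM in SW1990 and 28.1 and 25.5 FPKM in PANC-1 cells, where PTPRC, PECAM1, PRSS1, INS and ALB were at 0. The part of these genes in the member differences was not tested.

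The relatives of the members were followed in a list of pocket proteins and DP partners. TFDP3, a DP gene of testis, was at 0 counts in all libraries, and 0 of the other 3 were called in any comparison of 2 libraries. For this and the following lists, the shares of all genes called were 4.13% after radiation in SW1990 and 4.7% in PANC-1 cells, and 35.9% and 35.2% between the unirradiated and the irradiated lines. In the fit of 4 libraries TFDP2 was called between the lines (log2 difference 0.73, edgeR adjusted p 0.0184), 1 of 3 genes beside 43.6% of all. The pocket protein gene RBL1 had 10.1 and 8.25 FPKM in SW1990 cells and 6.23 and 8.21 FPKM in PANC-1 cells. RBL2 had 15.1 and 15.5 FPKM in SW1990 cells and 11 and 9.88 FPKM in PANC-1 cells. TFDP2 had 13.9 and 15.2 FPKM in SW1990 cells and 9.78 and 9.68 FPKM in PANC-1 cells. TFDP1 exceeded TFDP2 in FPKM by 7.99 and 6.99 times in SW1990 cells and by 3.37 and 4.28 times in PANC-1 cells.

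Genes that act on RB1 were followed next. Of 8 genes of the kinases that phosphorylate RB1, 0 were called in SW1990 and 1 in PANC-1 cells, where 4.7% of all genes were. This was CCND2, a D-type cyclin, which fell in PANC-1 cells from 248 to 53 counts (log2 fold change -2.10, -2.55 to -1.66) and had 3470 and 4263 counts in SW1990 cells. Its FPKM in PANC-1 cells was 1.36 without and 0.408 with radiation. It thus passed the filter of 1 FPKM there only through the unirradiated library, which favours a fall. CCND2 was also called between the lines, higher in SW1990 cells by 3.98 without and by 6.38 with radiation. CCNE2, a cyclin partner of CDK2, was called between the unirradiated lines, at 1.40 in favour of SW1990 cells. Of 7 CDK inhibitor genes 5 were tested after radiation, and 1 was called in SW1990 and 0 in PANC-1 cells. CDKN1A, the p53 target that codes for p21, rose from 1229 to 4002 counts in SW1990 cells, at a log2 fold change of 1.70 (1.6 to 1.79). In PANC-1 cells it had 1282 and 782 counts, a log2 fold change of -0.58, and the difference between the lines of 2.28 (2.12 to 2.44) passed the test of the difference. CDKN2C, an inhibitor of CDK4 and CDK6, had 217 and 153 counts in SW1990 and 635 and 1006 counts in PANC-1 cells, log2 fold changes of -0.51 and 0.79 that differed by -1.3 (-1.63 to -0.97). It was called between the lines at both treatments, higher in PANC-1 cells. CDKN1A was called between the irradiated lines, at 2.40 in favour of SW1990 cells. CDKN2A, the gene of the inhibitor p16, and its neighbour CDKN2B are named here after their values were seen. CDKN2A had 6 and 9 counts in SW1990 cells and 0 in both PANC-1 libraries. CDKN2B had 24 and 34 counts in SW1990 cells and 0 in both PANC-1 libraries.

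The MuvB complex works with E2F4 and pocket proteins in resting cells and with MYBL2 and FOXM1 in dividing ones. After radiation 0 of its 5 subunit genes listed were called in either line, and of the partners MYBL2 and FOXM1, FOXM1 was called in both. FOXM1, a factor that drives genes of mitosis, rose in SW1990 cells from 1596 to 3816 counts (log2 fold change 1.25, 1.17 to 1.34). It fell in PANC-1 cells from 2887 to 1266 counts (log2 fold change -1.06, -1.16 to -0.96), and the difference of 2.31 (2.18 to 2.44) passed the test. Both calls were lost with FPKM, at 0.85 and -0.65 on the log2 scale, and the call in PANC-1 cells also with total counts (-0.97). LIN37, a MuvB subunit, was called between the lines at -1.50 and -1.22. FOXM1 was called between the irradiated lines in the other direction, at 1.64 in favour of SW1990 cells. Of 9 genes of the E2F6 complex, 0 were called in any comparison of 2 libraries. Between unirradiated lines WDR5 was called with total counts (1.15) and FPKM (1.27), and between irradiated lines MAX with total counts (1.07) and FPKM (1.38) and WDR5 with FPKM (1.05). The fit of 4 libraries called 4 of the 9 between the lines (44.4%, beside 43.6% of all genes). MAX (0.79) and WDR5 (0.90) were higher in SW1990 cells, and CBX3 (-0.53) and MGA (-0.59) in PANC-1 cells. The list had a median log2 fold change after radiation of -0.08 for SW1990 and -0.12 for PANC-1. Its most abundant genes were CBX3, which reads methylated histones (42.6 FPKM on average over 4 libraries), WDR5 (27.6 FPKM), which binds histone H3, and MAX (26.0 FPKM), a dimer partner of MYC. In the list of E2F and RB turnover, 0 of 5 genes were called after radiation. SKP2, a subunit of an ubiquitin ligase, was higher in SW1990 cells by 1.49 and 1.25. MDM2, which binds p53 and RB1, was called between the irradiated lines at 1.22, and with FPKM also between the unirradiated ones (1.56).

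The E2F targets of S phase, 34 genes of DNA replication and the G1/S step, had different values in the lines. After radiation 0 of 34 passed the 2-fold rule in either line. By the adjusted p alone, 20 were higher and 2 lower in PANC-1 cells, beside 15.3% and 19.3% of all genes, and 5 were higher and 8 lower in SW1990 cells, beside 14.4% and 11.8%. Their median log2 fold change was 0.24 in PANC-1 and -0.09 in SW1990 cells, with the same sign under total counts, DESeq2 size factors and FPKM. The difference between the lines passed the adjusted p for 18 of 34 genes, where all 18 had the lower value in SW1990 cells and 12.2% of all genes did so, and none of them exceeded 1. By FPKM 1 did, MCM5, a helicase subunit gene named after its values were seen, at -1.03. PCNA, the sliding clamp of DNA polymerase, had 5521 and 4879 counts in SW1990 cells and 3897 and 4449 in PANC-1 cells, log2 fold changes of -0.19 and 0.32. MCM2, a subunit of the replicative helicase, had -0.12 and 0.39 in the same order. CDC6, which loads that helicase, had 0.43 and 0.41, and the thymidine kinase gene TK1 had 0.44 and 0.58. CDC6 and TK1 were thus higher after radiation in both lines, unlike PCNA and MCM2.

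**Figure D4:**
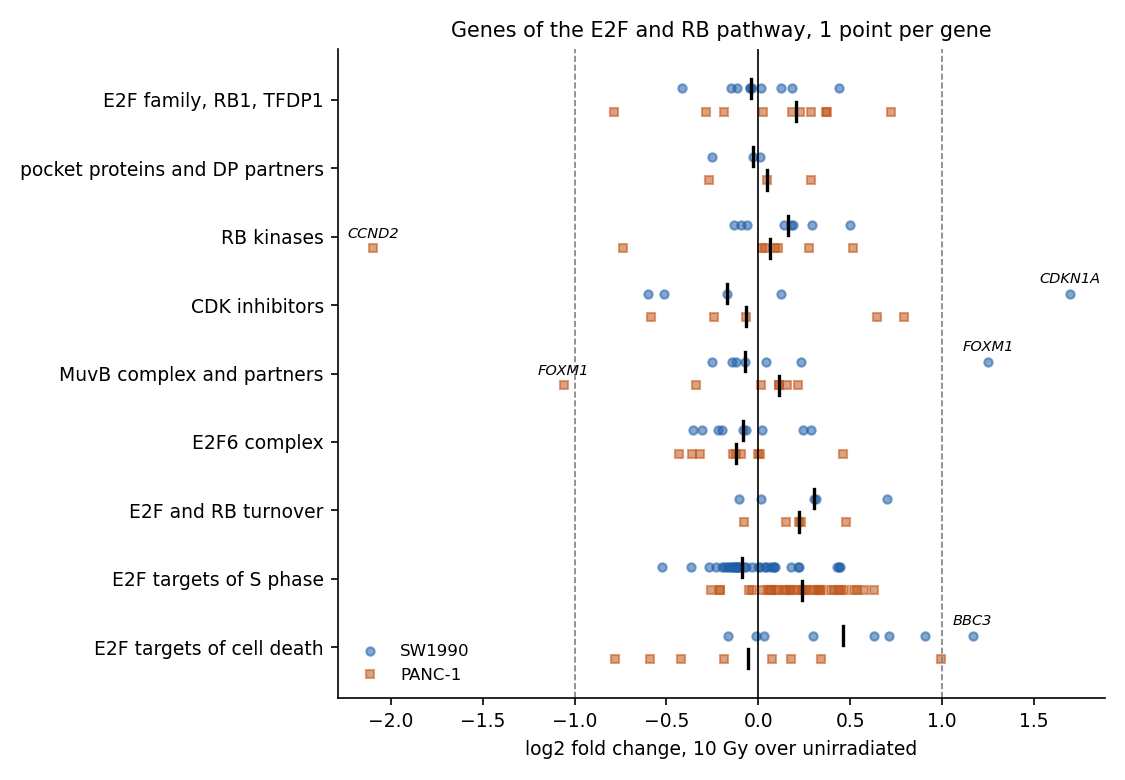
Log2 fold change of the irradiated over the unirradiated library for each gene tested of 9 lists, circles for SW1990 and squares for PANC-1, with a black bar at the median of each list and names at the genes called. The medians of the E2F targets of S phase are -0.09 and 0.24, and FOXM1 is named on both sides of 0.

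Between the lines, 30 of 34 S phase targets were higher in unirradiated SW1990 cells and 26 in irradiated ones, with medians of 0.53 and 0.27. Of all genes tested 49.6% and 49.5% were higher, with a median of -0.01 at each treatment. By the 2-fold rule 6 of 34 were called in unirradiated cells, beside 35.9% of all genes. The called genes in unirradiated cells were MCM4 (1.52), ORC1 (1.36), CDC6 (1.09), MCM6 (1.03) and POLA1 (1.02), all of DNA replication and higher in SW1990 cells. MSH6, a mismatch repair gene, was called in the other direction (-1.40). Genes of the list called higher in SW1990 cells numbered 5 of 34 here, where 17.3% of all genes were, and 3 with DESeq2 size factors (16.3% of genes), where MCM6 (0.96) and POLA1 (0.95) were not called. They numbered 9 with total counts (21.1% of genes) and 12 with FPKM (20.7% of genes). The fit of 4 libraries called 15 of the 34 (edgeR), 13 of them higher in SW1990 cells, a share of 44.1% beside 43.6% of all genes.
Among the windows of the promoter table, 18 of the 29 S phase targets with a window held at least 1 of the E2F words, 62.1%, as did 4 of the 7 members with a window other than that of RB1, and 3.99% of all 27305 symbols.

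Of 8 E2F targets of cell death, 1 was called in SW1990 and 0 in PANC-1 cells. BBC3, a p53 target that codes for the BH3-only protein PUMA, rose in SW1990 cells from 106 to 239 counts (log2 fold change 1.17, 0.83 to 1.51), and had 122 and 65 counts in PANC-1 cells (-0.78). The differences for BBC3 (1.94), BCL2L11 (1.32) and PMAIP1 (1.3), all genes of BH3-only proteins, passed the test. By FPKM BCL2L11 had 2.39 without and 2.74 with radiation in PANC-1 cells, which turned its direction there, and its difference between the lines was then 0.45 on the log2 scale. TP73, a p53 relative, had 535 and 831 counts in SW1990 and 79 and 144 in PANC-1 cells, log2 fold changes of 0.63 and 1.0, the latter just under the 2-fold limit. With total counts (1.09) and FPKM (1.37) the value of TP73 in PANC-1 cells was called, while its FPKM in SW1990 cells went from 9.98 to 8.75, which turned the direction there (-0.19). In PANC-1 cells TP73 had 0.525 FPKM without and 1.36 FPKM with radiation. It passed the filter of 1 FPKM there only through the irradiated library, which favours a rise. The list median was 0.46 for SW1990 and -0.06 for PANC-1, where it became 0.03 with total counts. With FPKM these medians were 0.28 and 0.15.

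By Euclidean distance of log2(FPKM + 0.01), centred per gene over the 4 libraries, the 5 genes closest to E2F3 among those with at least 5 FPKM in a library were DDX56 (0.0367), TP53RK (0.0433), NT5DC2 (0.0448), SRP14 (0.0571) and SNX27 (0.0583). DDX56, for example, had 38.1 and 50.7 FPKM in SW1990 cells and 52.7 and 46.2 FPKM in PANC-1 cells, the same order of libraries as E2F3. With 4 libraries, such closeness describes these libraries and nothing more.

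Rows with related names held few reads, with 2 exceptions. Of 9 rows whose name begins like that of a member or relative, 7 were pseudogenes of E2F3, E2F4 and E2F6 with at most 20 counts over all libraries. E2F3-IT1, a transcript inside E2F3 on the same strand at chr6:20437821-20440178, had 26 and 23 counts in SW1990 and 55 and 24 in PANC-1 cells. How reads were split between it and E2F3 is not stated, and E2F3 had at least 10 times as many counts in each library. In FPKM the 2 rows lay closer, since E2F3-IT1 had 2.96 and 2.57 FPKM in SW1990 and 4.71 and 2.38 FPKM in PANC-1 cells. RB1CC1, which shares only the start of its name with RB1, had between 9.64 and 18.1 FPKM. In the deposited table E2F3 spans chr6:20401906-20493715 and TFDP1 spans chr13:113584721-113641470. RB1 spans chr13:48303751-48481986, short of the end at 48599436 in GENCODE release 29, while the other 9 members have the same start and end there.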

How the data were processed

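The deposited table has 59263 rows, and the authors deposited raw counts and FPKM for each of the 4 libraries. Per the methods and the submitters' processing notes, reads were trimmed with Trimmomatic 0.36, aligned to GRCh38 with HISAT2 2.0 and quantified with StringTie 1.3.3b, and the authors deposited FPKM values scaled to transcript length and library size. The tool that made the counts is not given in the sources used here. The 1089 rows that name no gene (0.453% to 0.635% of counts) were left out.

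Counts of 2 libraries were compared with edgeR 4.0.16 in R 4.3.3 (exactTest at dispersion 0, TMM scaling, Benjamini-Hochberg adjustment over all genes tested), among genes with at least 1 FPKM in 1 of them. For calls, a value of 0 was set to 0.01. The response difference was tested with a Wald test after adding 0.5 to each count. The 4 libraries were fitted with the edgeR quasi-likelihood test (common coefficient of variation 0.218), and DESeq2 1.42.0 served as an alternative. The read test was tested on simulated data in which 200 genes differed 4-fold, and recovered 199 of them for radiation in SW1990 cells (15731 genes) and 200 in PANC-1 cells (15159 genes). These simulated counts held counting error alone, so they do not show how the test behaves with a spread between replicates. Other scalings, filters, fold limits and assumed spreads were tried. A floor of 3 counts corresponds to between 0.129 and 0.168 CPM. Members, lists and tests were chosen with earlier results of these data known. All members are named, and of the other lists the genes called, or else the 3 most abundant, with CDC6, PCNA, TK1 and MCM2 always.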

Additional observations from a re-analysis of the deposited data

Results flagged for a closer look

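For 5 members the radiation response differed between SW1990 and PANC-1 cells by the Wald test of the difference itself, at an adjusted p below 0.001 that covers counting error only, as it did for 28.7% of 13228 genes. The difference in log2 fold change, SW1990 minus PANC-1, was -0.40 for E2F1, -0.77 for E2F2, 0.72 for E2F3, 0.37 for E2F7 and -0.52 for E2F8. For E2F3 the 2 lines had opposite signs with both intervals clear of 0, and for E2F7 both were negative. Of 86 other genes of the lists tested, 7 (8.14%) passed the same test with a difference above 1, as did 6.26% of all genes: BBC3 (1.94), BCL2L11 (1.32), CCND2 (2.38), CDKN1A (2.28), CDKN2C (-1.3), FOXM1 (2.31) and PMAIP1 (1.3). By FPKM the difference was 0.45 for BCL2L11 and 1.49 for FOXM1, and it exceeded 1 for E2F2 (-1.18), CCNE2 (-1.13) and MCM5 (-1.03), whose adjusted p was below 0.001, and for TP73 (-1.57), whose adjusted p was 0.161. For E2F7 it was 0.14. CCND2 and TP73 passed the filter in PANC-1 cells only through the library where they were higher, at 1.36 FPKM for each gene. With 1 library per line and treatment, the line, the treatment and the single library cannot be told apart in these values.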

How the results depend on the processing

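Of the 10 members, 0 were called after radiation in SW1990 cells under every alternative run. In PANC-1 cells 2 were called, E2F7 and E2F2, once the fold limit was set to 1.5, where 11.7% of genes were, and 0 under the others. Between unirradiated lines 2 members were called in the main setting, 4 with FPKM fold changes (36.2% of genes), 6 with a fold change above 1.5 (50.7% of genes), and 0 with an assumed coefficient of variation of 0.2 (21.9% of genes) or of 0.4 (9.85%). With FPKM E2F7 (-0.85) was not called, and E2F2 (1.05), E2F4 (1.07) and E2F8 (1.05) were. Between irradiated lines the 2 calls became 1 with DESeq2 size factors (35.1% of genes), where RB1 had 0.97, 5 with a fold change above 1.5 (49.5% of genes) and 0 with either assumed coefficient of variation (20.9% and 9.64%). The difference of the response was called for 2 members, E2F2 and E2F3, at a difference above 1.5-fold (14.3% of genes), and for 1, E2F2, by FPKM (5.59%), an alternative chosen after seeing the data. Of the single log2 fold changes, RB1 in SW1990 cells after radiation became -0.01 with total counts and -0.03 with FPKM, TFDP1 there became -0.06 with FPKM, and E2F4 in PANC-1 cells became -0.0054 with DESeq2 size factors. E2F3 between irradiated lines became -0.04 with DESeq2 size factors. Including the rows that name no gene changed no call and no sign in 40 values. The fit of 4 libraries called 6 members between lines (43.6% of genes), 4 with DESeq2 (33.7%) and 4 with no filter on low counts (20.2%), both without E2F1 and E2F8, and 5 with DESeq2 size factors (42.9%), without E2F1. The cause of these shifts was not tested. The labels carry no replicate numbers, and the fit of 4 libraries already has the line as its block. Depth limits the members with few counts, E2F3, E2F5 and E2F6: for E2F6 in PANC-1 cells, with 341 and 354 counts, the 95% interval ran from -0.03 to 0.40.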

Other observations

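The neighbours of the members were looked at after their values were seen, because TFDP1 and RB1, both on chromosome 13, were higher in SW1990 cells. Of 15 genes tested within 1000000 bases of RB1, 14 had a higher scaled count in unirradiated SW1990 than in unirradiated PANC-1 cells, with a median log2 difference of 1.11. Over all genes tested, 49.6% had the higher value in unirradiated SW1990 cells. Some of the 15 had few reads, such as LINC00444 with 6 counts in SW1990 and 0 in PANC-1 cells, and RNY3P2 with 4 and 5. SUCLA2, a subunit of a citric acid cycle enzyme, had 1106 counts in SW1990 and 480 in PANC-1 cells, and MED4, a Mediator subunit, had 661 and 344. Of 27 genes within the same distance of TFDP1, 19 had the higher value in SW1990 cells (median 0.55). The scaled log2 differences of the 27 genes ran from -10.9 to 8.32. Among the 27, CUL4A, a scaffold of ubiquitin ligases, had 4233 raw counts in unirradiated SW1990 and 3096 in unirradiated PANC-1 cells (scaled log2 difference 0.62). LAMP1, a lysosomal membrane gene, had 3890 and 4421 raw counts, which is -0.01 after scaling. For E2F7, which was higher in PANC-1 cells, 1 of 7 neighbours was higher in SW1990 cells, with a median of -0.47. For E2F8, higher in SW1990 cells, 3 of 12 neighbours were, with a median of -0.50. For E2F4, also higher in SW1990 cells, 37 of 52 neighbours were (median 0.51). For E2F1, higher in PANC-1 cells, 13 of 25 neighbours were higher in SW1990 cells (median 0.01). Neighbouring genes share their region and are not independent, and no test was run.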
